A study of Homo sapiens with 6 samples.

Results

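The origin recognition complex (ORC) and the GINS complex with CDC45 act at the start of DNA replication. Transcripts of 10 of their genes, ORC1 to ORC6, GINS1 to GINS3 and CDC45, were compared between 786-O cells and 7R cells. The members were picked by gene symbol, though with earlier results of these data known. All 10 were found among the 54261 gene rows of the count table. They all passed the filter on low counts, which kept 16642 rows. 786-O is a human cell line from a clear-cell kidney carcinoma, and 7R is derived from it and labelled resistant to sunitinib, a receptor tyrosine kinase inhibitor. The labels name no vector, transgene or selection dose, and they do not say whether the drug was present at harvest. Total RNA was sequenced as 3 libraries of 786-O, called control here after the labels, and 3 of 7R, called resistant. The labels do not say whether the 3 libraries were grown as separate cultures. The p-values therefore reflect only how far these libraries scatter, and that scatter may be technical.

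ORC is the platform on which replication starts. It binds DNA and, together with CDC6 and CDT1, loads the ring of MCM proteins that is the inactive core of the replicative helicase. In S phase the kinases CDK2 and CDC7 allow CDC45 and GINS to join that ring, which makes the active CMG helicase (CDC45, MCM, GINS). ORC2 to ORC5 form a stable core with ORC1, which in human cells is made and destroyed with the cell cycle, and ORC6 is held more loosely. ORC1, CDC45 and several GINS and MCM genes are textbook targets of E2F factors, which switch on S-phase genes.

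Promoter sequence is shown for members that moved in different directions, because these genes are known for E2F control. Each line gives the 250 bases before the transcription start from RefSeq (GRCh38.p14), 5′ to 3′ in the direction of the gene. Capitals mark matches on either strand to an E2F core (the letters TTGGCGC, the letters TTCCCGC, the letters TTCGCGC, and the letters TTGCCGC) or to the CCAAT box bound by NF-Y. In ORC1 these overlap in a single run.
ORC1, chr1:52404424-52404673 (- strand): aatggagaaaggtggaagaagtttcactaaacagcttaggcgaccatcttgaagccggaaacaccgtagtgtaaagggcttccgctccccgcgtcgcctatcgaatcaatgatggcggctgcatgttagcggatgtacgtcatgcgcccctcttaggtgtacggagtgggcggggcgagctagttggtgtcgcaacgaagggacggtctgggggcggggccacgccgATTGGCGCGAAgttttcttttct
GINS2, chr16:85688955-85689204 (- strand): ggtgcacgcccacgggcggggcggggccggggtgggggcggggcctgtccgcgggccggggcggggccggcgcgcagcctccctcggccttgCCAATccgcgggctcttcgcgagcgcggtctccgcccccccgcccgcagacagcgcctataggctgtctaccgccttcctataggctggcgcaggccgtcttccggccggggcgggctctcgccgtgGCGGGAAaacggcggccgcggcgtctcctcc
CDC45, chr22:19479670-19479919 (+ strand): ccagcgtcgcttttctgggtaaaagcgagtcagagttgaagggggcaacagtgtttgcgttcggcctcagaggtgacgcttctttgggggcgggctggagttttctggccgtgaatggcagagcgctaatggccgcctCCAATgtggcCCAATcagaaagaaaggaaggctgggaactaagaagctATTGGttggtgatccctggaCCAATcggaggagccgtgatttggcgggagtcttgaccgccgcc
ORC3, chr6:87589885-87590134 (+ strand): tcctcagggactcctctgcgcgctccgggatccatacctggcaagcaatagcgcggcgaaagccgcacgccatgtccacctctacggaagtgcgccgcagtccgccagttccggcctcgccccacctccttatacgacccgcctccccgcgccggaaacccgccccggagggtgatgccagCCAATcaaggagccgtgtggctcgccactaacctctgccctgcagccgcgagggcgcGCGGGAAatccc
The E2F core was present in the windows of ORC1, ORC3 and GINS2, which is 3 of 10 members, and in 10.9% of all 35116 windows of this length. The CCAAT box was present in 7 of 10 members (ORC1, ORC2, ORC3, ORC6, GINS1, GINS2 and CDC45) and in 32.0% of all windows. The letters GGCGGGA share a run with the reverse complement of the E2F core TTCCCGC, and so largely describe the same form of site. They were present in 4 of 10 members (ORC2, ORC4, GINS2 and CDC45) and in 13.5% of all windows. In GINS2 they overlap the E2F core, so the matches there mark the same site. Matches were thus found both in members that were lower in resistant libraries (ORC1, GINS2, CDC45) and in members that were higher before adjustment (ORC2, ORC3, ORC4). The motifs were chosen with the sequences in view, and a match is a description of letters only.

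Library totals ranged from 37919629 to 52221491 counts, and a member held between 499 and 4308 counts in a library. Levels are CPM, a count divided by the size of its library, with TMM factors, a method that sets libraries to a common scale from genes that differ little, and fold changes are resistant over control. Across 14201 tested genes with a known transcript GC content, the fold change followed GC content, with a Spearman's rho of -0.69 across genes, which are not independent replicates and share the same 6 libraries. Each member is therefore given both on the TMM scale and after a smooth trend on transcript GC content and length was removed from every library. The trend may hold both technical and biological parts, which cannot be told apart here. Kidney lineage markers were present in both lines, with PAX8 at 545 ± 47.2 CPM in control and 407 ± 8.89 CPM in resistant libraries (SD, n = 3), and the immune markers PTPRC and CD3E and the glial markers MOG and OLIG2 had 0 counts in each library. Other members of those lists were detected. The glial list summed to 22.5 to 27.3 CPM in control and 37.96 to 41.6 CPM in resistant libraries, mostly MBP, and AQP4 had 0 counts in control and 46 in resistant libraries. The immune list summed to 39.9 to 46.7 CPM in control and 9.09 to 10.6 CPM in resistant libraries, mostly CD68. The extraction text mentions brain tissue. SLC17A7, a marker of excitatory neurons, summed to 8 counts in control and 9 in resistant libraries, and the summed level of 6 neuronal genes was 106 to 120 CPM in control and 74.2 to 95.4 CPM in resistant libraries, mostly NEFL. Within it SNAP25 went the other way, at 3.32 ± 0.460 CPM in control and 12.9 ± 1.68 CPM in resistant libraries, as did SYT1, at 0.405 ± 0.128 and 2.29 ± 0.723 CPM (SD, n = 3). Both rose by edgeR, by 1.96 and 2.49 on the log2 scale, and by 1.33 and 1.47 after adjustment. RBFOX3 was at 0.625 ± 0.144 CPM in control and 0.927 ± 0.285 CPM in resistant libraries, and the lines overlapped. It passed only after adjustment, at 1.92 (edgeR adjusted p = 1.04e-03). GAD1 fell (-1.20, adjusted -0.78). Of the fibroblast list, the summed level was 5.22 to 6.57 CPM in control and 19.5 to 42.8 CPM in resistant libraries, mostly LUM, and the part of any of these lists in the results was not tested.

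On the TMM scale the members divided into 6 that fell (ORC1, ORC6, GINS1, GINS2, GINS3 and CDC45) and 4 that rose (ORC2, ORC3, ORC4 and ORC5), by edgeR's quasi-likelihood test with Benjamini-Hochberg adjustment over all genes tested. Over the whole data set 76.2% of genes passed this test, 39.3% higher and 36.9% lower, so that passing it does not set a gene apart. The groups did not overlap for any of the 10 members, and for 80.3% of all genes tested. After the GC and length adjustment the same 6 members were lower and 0 were higher by edgeR (0 also at an unadjusted p under 0.05, and no other tool was run on adjusted counts), where 34.4% of all genes tested were higher and 32.6% lower, together 67.0%. The remaining 4, ORC2 to ORC5, did not pass. After adjustment the groups did not overlap for 6 of 10 members, and for 71.8% of all genes tested.

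**Figure D1:**
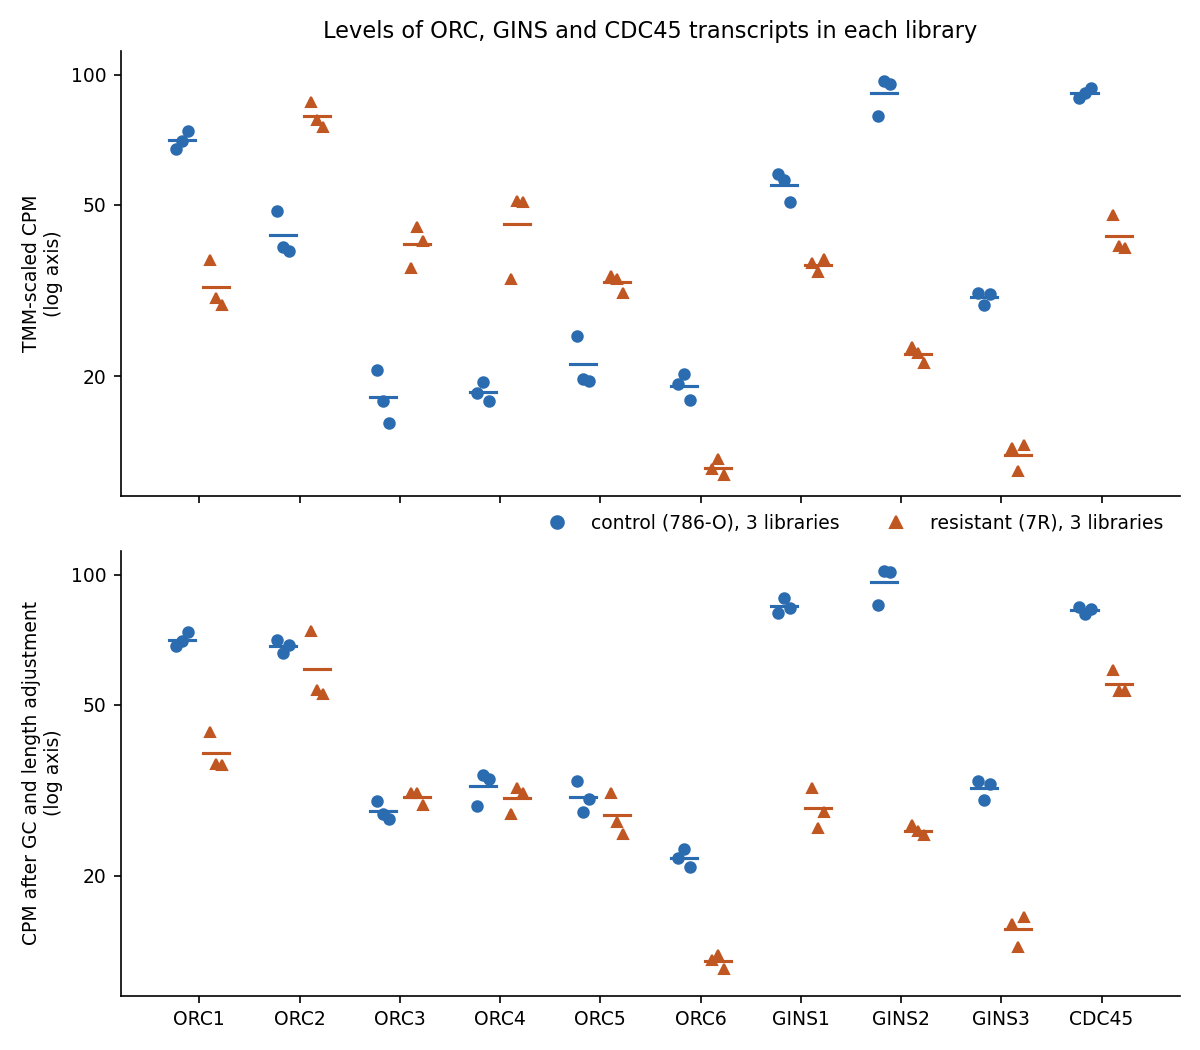
Level of each member in each library on a log axis, as TMM-scaled CPM (upper panel) and as CPM after adjustment for transcript GC content and length (lower panel). Circles are the 3 control and triangles the 3 resistant libraries, and bars are group means; the resistant libraries of ORC2 to ORC5 lie above the control ones in the upper panel and overlap them in the lower, while ORC1, ORC6, GINS1 to GINS3 and CDC45 lie lower in both.

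ORC1, the largest subunit and an ATPase, was measured at 67.4, 70.2 and 73.9 CPM in the control libraries and 37.1, 30.4 and 29.2 CPM in the resistant ones. The resistant libraries were all below the control libraries, with replicate 1 the highest of them. Its log2 fold change was -1.13 ± 0.12 (SE, adjusted p = 3.76e-06), a level 2.19-fold lower. After GC and length adjustment ORC1 stood at 70.7 ± 2.77 CPM in control and 38.6 ± 4.01 CPM in resistant libraries (SD, n = 3), a log2 fold change of -0.87 ± 0.09 (edgeR adjusted p = 4.35e-06). Of all genes tested, 12.4% had a lower adjusted fold change.

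ORC6, the smallest subunit, which also has a role in cytokinesis, was measured at 19.2, 20.2 and 17.6 CPM in control and at 12.2, 12.9 and 11.8 CPM in resistant libraries. The groups did not overlap, and the resistant libraries lay close together. This was a log2 fold change of -0.63 ± 0.12 (edgeR adjusted p = 4.95e-04) and -0.79 ± 0.10 after adjustment (edgeR adjusted p = 2.15e-05). With libraries scaled by their totals alone it was -0.29 and did not pass (edgeR adjusted p = 0.0551).

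The core subunits ORC2 to ORC5 behaved alike before adjustment. ORC2 was measured at 48.4, 39.9 and 39.0 CPM in control and at 86.5, 78.4 and 75.8 CPM in resistant libraries. Replicate 1 was the highest library of both lines, and the lines did not overlap. ORC2 thus had a log2 fold change of 0.92 ± 0.12 (edgeR adjusted p = 1.90e-05). ORC3 was measured at 20.7, 17.5 and 15.6 CPM in control and at 35.7, 44.3 and 41.2 CPM in resistant libraries, a log2 fold change of 1.17 ± 0.14 (edgeR adjusted p = 7.37e-06). ORC4, an ATPase subunit, was measured at 18.3, 19.4 and 17.5 CPM in control and at 33.5, 51.0 and 50.8 CPM in resistant libraries. Its resistant replicate 1 stood well below the other resistant libraries, though above every control library. ORC4 had a log2 fold change of 1.29 ± 0.16 (edgeR adjusted p = 1.12e-05), the largest rise among the members. ORC5 was measured at 24.7, 19.7 and 19.5 CPM in control and at 34.1, 33.6 and 31.2 CPM in resistant libraries. Its log2 fold change was 0.63 ± 0.12 (edgeR adjusted p = 5.52e-04).

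None of these 4 rises was left after the GC and length adjustment. The adjusted log2 fold change was -0.18 ± 0.12 for ORC2 (edgeR adjusted p = 0.189), 0.11 ± 0.08 for ORC3 (adjusted p = 0.230), -0.09 ± 0.09 for ORC4 (adjusted p = 0.411) and -0.15 ± 0.10 for ORC5 (adjusted p = 0.226). Adjusted levels of ORC2 were 70.5, 65.8 and 68.9 CPM in control and 74.0, 54.2 and 52.8 CPM in resistant libraries, so that resistant replicate 1 lay above all control libraries and the other 2 below them. Without resistant replicate 1 the adjusted values were -0.35 for ORC2 (edgeR adjusted p = 5.95e-04) and -0.24 for ORC5 (adjusted p = 0.0368), both lower in resistant libraries. ORC3 and ORC4 did not pass the adjusted test with any single library left out. The transcripts of the 4 core subunits had a GC content of 37.5% to 41.8%, and those of the 6 falling members 41.4% to 51.7%.

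**Figure D2:**
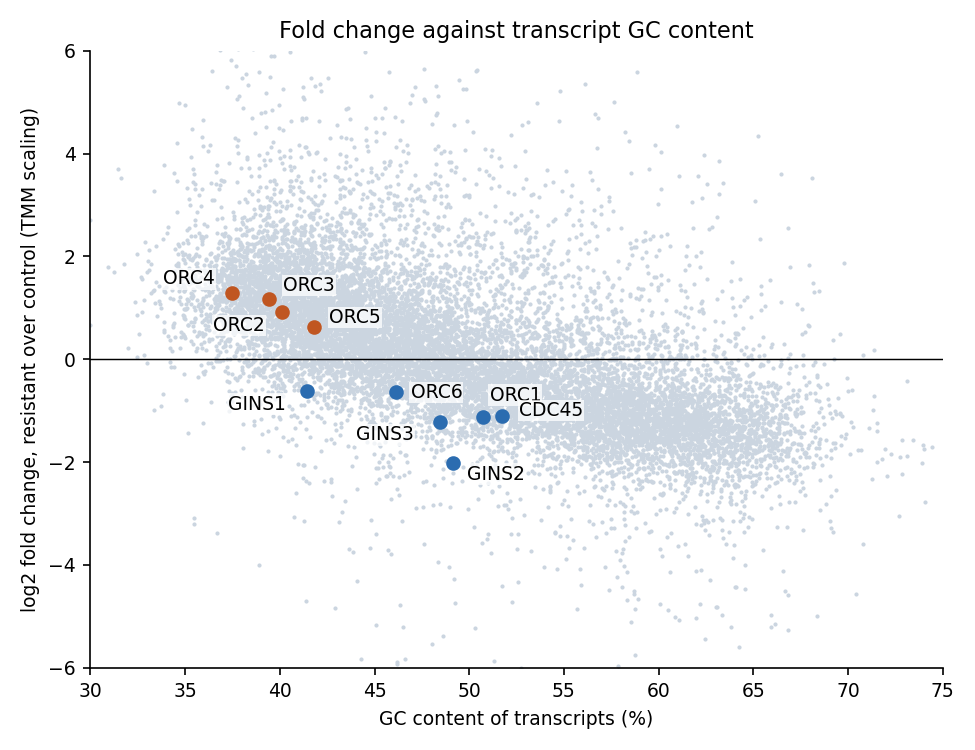
Log2 fold change (TMM scaling) against the median GC content of a gene's transcripts in percent, for 14201 tested genes (grey points, 95 of them outside the axes) and the 10 members (ORC2 to ORC5 in orange, the others in blue). ORC2 to ORC5 lie inside the grey cloud at their GC content, while GINS1 and GINS2 lie in its lower part, with other genes of like GC content below them.

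GINS2 had the largest decrease of the 10 members on both scales, while GINS1 had the smallest of the 6 decreases on the TMM scale and the second largest after adjustment. GINS2 (also called PSF2) was measured at 80.1, 96.9 and 95.2 CPM in control and at 23.4, 22.6 and 21.4 CPM in resistant libraries. The resistant libraries lay close together, and the fitted level was 4.04-fold lower than in control. The log2 fold change was -2.01 ± 0.12 (edgeR adjusted p = 7.79e-08), and 4.56% of all genes tested had a lower one. The adjustment left it at -1.92 ± 0.09 (edgeR adjusted p = 1.98e-08), with 2.42% of all genes tested lower.

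GINS1 (PSF1) was measured at 58.9, 56.9 and 50.6 CPM in control and at 36.5, 34.96 and 37.3 CPM in resistant libraries. The lines were apart, with a log2 fold change of -0.61 ± 0.11 (edgeR adjusted p = 2.31e-04). GINS1 has a low transcript GC content, 41.4%, and its decrease became larger after adjustment, at -1.56 ± 0.09 (edgeR adjusted p = 9.51e-08), with 3.81% of all genes tested lower. With libraries scaled by their totals alone the unadjusted decrease was only -0.27 (edgeR adjusted p = 0.0469). GINS3 (PSF3) was measured at 31.1, 29.3 and 31.0 CPM in control and at 13.6, 12.01 and 13.8 CPM in resistant libraries. Every resistant library was below every control library by more than the spread within a line. The log2 fold change of GINS3 was -1.21 ± 0.11 (edgeR adjusted p = 1.56e-06), and -1.08 ± 0.09 after adjustment (edgeR adjusted p = 1.54e-06).

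CDC45, which bridges GINS and the MCM ring, was measured at 88.4, 90.7 and 93.1 CPM in control and at 47.4, 40.1 and 39.6 CPM in resistant libraries. The control libraries lay close together and above the resistant ones, of which replicate 1 was the highest, as for ORC1. The log2 fold change was -1.10 ± 0.11 (edgeR adjusted p = 2.46e-06). After adjustment it was -0.57 ± 0.07 (edgeR adjusted p = 3.25e-05), the smallest decrease among the 6, with 21.3% of all genes tested lower.

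**Figure D3:**
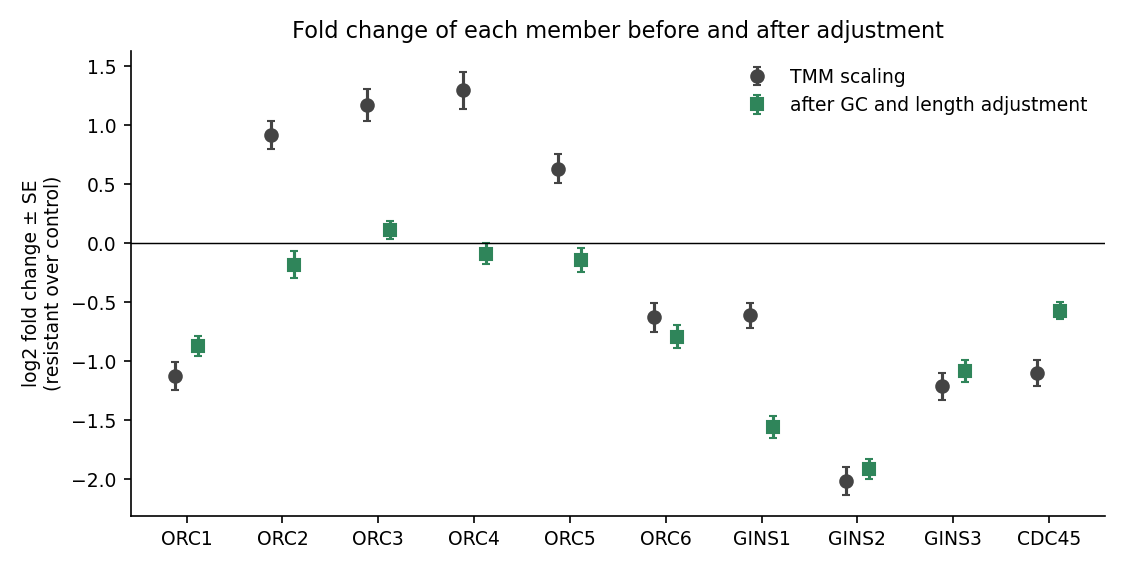
Log2 fold change of each member, resistant over control, with its standard error, on the TMM scale (circles) and after GC and length adjustment (squares), from 3 control and 3 resistant libraries. The circles of ORC2 to ORC5 are above 0 and their squares near 0, and the decreases of GINS1 and ORC6 are larger as squares than as circles.

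Levels of different genes were compared only per kilobase of transcript (TMM-scaled CPM over the median transcript length). In control libraries the order was CDC45 (44.8 ± 1.15), GINS2 (34.0 ± 3.45), ORC1 (22.6 ± 1.04), GINS1 (17.1 ± 1.33), GINS3 (15.8 ± 0.537), ORC5 (15.1 ± 2.10), ORC6 (11.7 ± 0.813), ORC2 (9.84 ± 1.20), ORC3 (7.16 ± 1.03) and ORC4 (2.81 ± 0.145), all in CPM per kilobase (SD, n = 3). GINS1, GINS3 and ORC5 were within their spreads of their neighbours. In resistant libraries ORC5 (23.4 ± 1.11), CDC45 (20.9 ± 2.16), ORC2 (18.6 ± 1.29) and ORC3 (16.2 ± 1.75) came first. GINS1 (11.2 ± 0.368), ORC1 (10.3 ± 1.37), GINS2 (8.40 ± 0.379), ORC6 (7.53 ± 0.342), ORC4 (6.90 ± 1.53) and GINS3 (6.80 ± 0.511) followed, and many neighbours in that order were within their spreads. ORC4 has a long annotated transcript, of 6530 bases by the median of 5, so its level per kilobase rests on that length. These orders are on the TMM scale, and none was made after GC and length adjustment. There the lines overlapped for ORC2 to ORC5. Adjusted ORC5 was at 30.6 ± 2.59 CPM in control and 27.7 ± 3.21 CPM in resistant libraries (SD, n = 3). Adjusted CDC45 was at 82.9 ± 1.44 CPM in control and 55.7 ± 3.67 CPM in resistant libraries.

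A ratio within a library does not move with library scaling, so each falling member was set against the mean of ORC2 to ORC5 on the log2 scale per kilobase. The ratio of ORC1 was 1.40, 1.65 and 1.81 in control and -0.21, -0.68 and -0.67 in resistant libraries. That is, ORC1 stood above the mean of the core subunits in every control library and below it in every resistant one. After GC and length adjustment ORC1 stood above that mean in all 6 libraries, at 0.87, 0.97 and 1.01 in control and 0.22, 0.09 and 0.14 in resistant libraries. For the mean of GINS1 to GINS3 the ratio was 1.33, 1.56 and 1.62 in control and -0.63, -0.92 and -0.78 in resistant libraries. For ORC6 it was 0.66 ± 0.134 and -0.97 ± 0.0863 (SD, n = 3), and for CDC45 2.61 ± 0.180 and 0.50 ± 0.236. CDC45 thus stood above the mean of the core subunits in both lines, by less in the resistant one. The difference between the lines was -2.14 for ORC1, -1.63 for ORC6, -2.28 for GINS and -2.11 for CDC45. After GC and length adjustment the differences were smaller, at -0.80 for ORC1, -0.71 for ORC6, -1.44 for GINS and -0.49 for CDC45, and the lines still did not overlap for these 4 ratios. No p is given, because each ratio is a score over chosen members. On the TMM scale each falling member was lower and each core subunit higher without overlap. The separation of the lines in these ratios follows from that and is not a separate result. After adjustment the falling members were likewise already lower without overlap. No share over other genes was computed for such ratios.

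**Figure D4:**
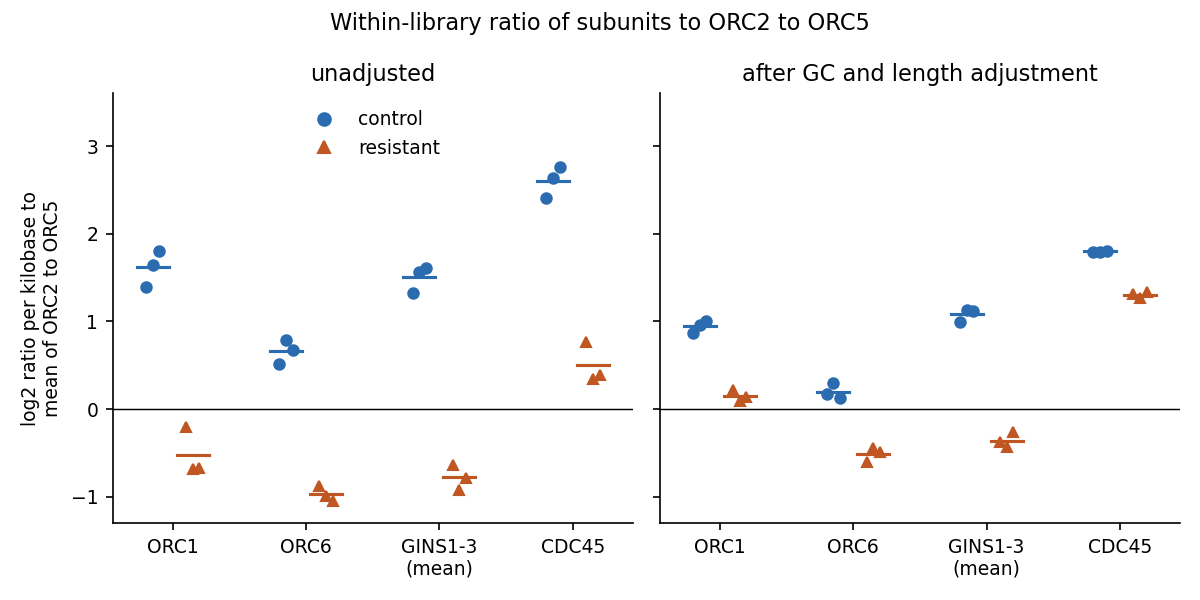
Log2 ratio per kilobase of ORC1, ORC6, the mean of GINS1 to GINS3, and CDC45 to the mean of ORC2 to ORC5 in each library, unadjusted (left) and after GC and length adjustment (right). Circles are control and triangles resistant libraries, and bars are group means; in both panels all resistant libraries lie below all control libraries.

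Other genes of replication start were followed in 7 lists with 71 genes, all of them tested. Of these 71 genes 20 were higher and 36 lower, with a median log2 fold change of -0.32 against 0.05 over all genes tested. Of all genes tested 39.3% were higher and 36.9% lower. The TMM-scale counts of the fork partners, the turnover genes and the E2F and pocket proteins, given below, lie near these shares. With libraries scaled by their totals alone 31 were higher and 32 lower, where 7851 genes of the whole table were higher and 4720 lower. After GC and length adjustment 7 of the 71 were higher and 55 lower, with a median of -0.51 against 0.02 over all genes tested. Of all genes tested 34.4% were then higher and 32.6% lower. In bulk RNA, fewer cells in S phase and less transcript per cell cannot be told apart.

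The helicase loading list holds MCM ring subunits (not all of them), their loaders and other linked genes. Of 9 genes 0 were higher and 5 lower (median -0.68). By edgeR 0 were higher at an unadjusted p under 0.05 too, and 0 by DESeq2. The count higher was 1 with a filter of at least 1 CPM in 3 libraries, and 1 with upper-quartile factors. With libraries scaled by their totals alone 4 were higher and 5 lower. All 9 were lower after GC and length adjustment (median -0.58). CDT1, the loading factor that works with ORC and CDC6, stood at 136 ± 8.99 CPM in control and 24.5 ± 5.61 CPM in resistant libraries (SD, n = 3), which is -2.47 on the log2 scale, and -1.06 once adjusted. MCM5 fell from 326 ± 30.7 to 83.6 ± 18.0 CPM (-1.96, adjusted -0.90), and MCM2 from 349 ± 19.2 to 116 ± 20.9 CPM (-1.59, adjusted -0.58).

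The helicase activation genes, which bring CDC45 and GINS to the ring, gave 3 higher and 5 lower of 10, and 1 higher and 7 lower after adjustment. TOPBP1, a scaffold for helicase assembly, stood at 41.0 ± 4.44 CPM in control and 109 ± 15.2 CPM in resistant libraries (1.41, adjusted 0.44, edgeR adjusted p = 1.87e-04). CDC7, the kinase of the MCM ring, rose by 1.32 on the log2 scale, while the adjusted value of 0.11 did not pass (edgeR adjusted p = 0.250). CCNE1, the cyclin E partner of CDK2, fell from 10.9 ± 1.75 to 5.07 ± 0.477 CPM (-1.11, adjusted -0.80). Of 12 fork partners of the CMG helicase 5 were higher and 5 lower, and 2 higher and 9 lower after adjustment. The 5 higher became 3 without control replicate 1 or 2 or resistant replicate 2 or 3, and 7 with libraries scaled by their totals alone. Among the subunits of polymerase alpha, POLA2 fell (-1.31, adjusted -0.64) and POLA1 rose (1.15, adjusted 0.30). POLE4, a small subunit of polymerase epsilon, fell (-1.13, adjusted -0.77).

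Of 6 partners of ORC on chromatin, 2 were higher and 4 lower, and 2 higher and 3 lower after adjustment. The adjusted counts became 1 higher without control replicate 1 or 2 or resistant replicate 2 or 3, and 1 lower without control replicate 2. LRWD1, which binds and stabilises ORC, stood at 63.5 ± 4.75 CPM in control and 18.6 ± 5.64 CPM in resistant libraries (-1.77), and its adjusted value of -0.28 (edgeR adjusted p = 0.0359) did not pass without control replicate 1, 2 or 3 (-0.30, -0.25 and -0.30) or resistant replicate 2 or 3 (-0.22 in both). KMT5B, a histone H4 lysine methyltransferase, rose by 1.54 (adjusted 0.78). PHIP rose by 1.83 (adjusted 0.26, edgeR adjusted p = 0.0225), and its adjusted value did not pass without control replicate 1 or 2 (0.22 and 0.26) or resistant replicate 2 or 3 (0.22 and 0.25). Of 10 genes for the turnover of ORC1, CDT1 and the helicase, 3 were higher and 4 lower, and 2 higher and 7 lower after adjustment. TRAIP, a ubiquitin ligase that unloads the helicase, fell (-1.36, adjusted -0.53), and UBXN7, which helps to extract it, rose (1.29, adjusted 0.50). CUL2, the scaffold of a helicase-unloading ligase, turned from 0.83 to -0.43 with the adjustment (edgeR adjusted p = 2.83e-04).

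Of 12 E2F and pocket protein genes, 5 were higher and 5 lower, and after adjustment 0 were higher and 10 lower (by edgeR 0 were higher at an unadjusted p under 0.05 too, and E2F1 and E2F6 did not pass). E2F1 stood at 144 CPM in control and 50.4 CPM in resistant libraries (-1.52), but its adjusted value of -0.11 did not pass (edgeR adjusted p = 0.195). E2F4, a mostly repressive E2F, stood at 164 CPM in control and 47.9 CPM in resistant libraries (-1.78, adjusted -0.61). E2F2 had 262, 24 and 53 counts in the control libraries and 16, 12 and 10 in the resistant ones, a log2 fold change of -3.10 (adjusted -2.23), and without control replicate 1 the values were -1.59 and, adjusted, -0.61 (edgeR adjusted p = 0.305). The adjusted decrease of E2F2 also missed the threshold without resistant replicate 2 or 3 (-2.24 and -2.11). Of 12 proliferation markers, 2 were higher and 8 lower, and 0 were higher and 10 lower after adjustment (median -0.84; TOP2A, at 0.16, was the 1 gene higher at an unadjusted p under 0.05, with an edgeR adjusted p = 0.0502, and BUB1 did not pass either). Without resistant replicate 1 the adjusted count was 1 higher. The mitotic genes PLK1 (-1.95, adjusted -0.87), CDC20 (-1.91, adjusted -0.77) and FOXM1 (-1.51, adjusted -0.82) fell. On the TMM scale TOP2A (1.42) and BUB1 (0.61) rose. MKI67 (0.07, adjusted -0.31) and CDK1 (0.15, adjusted -0.96) did not pass on that scale and were lower after adjustment. Lower levels of most of the proliferation markers, not of all, thus accompanied the lower levels of ORC1, ORC6, GINS and CDC45. The part of the markers in those lower levels was not tested.

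**Figure D5:**
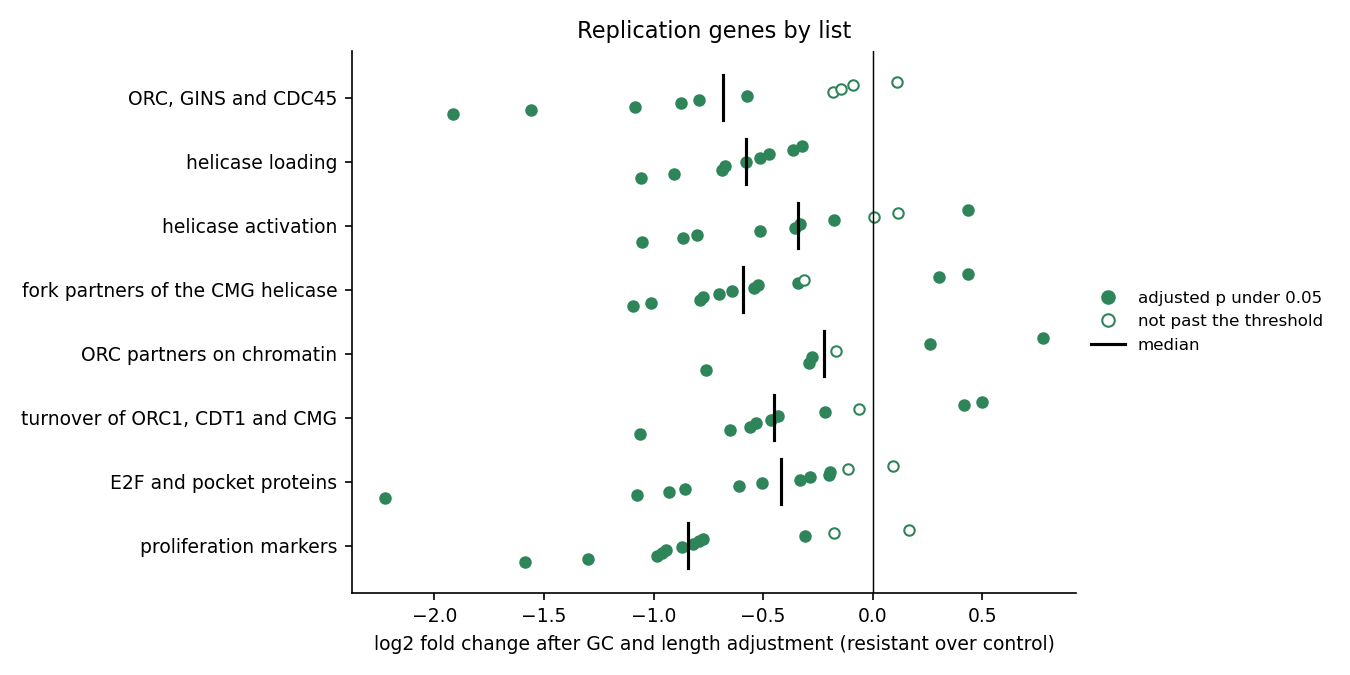
Log2 fold change after GC and length adjustment (resistant over control, 3 libraries each) of the 10 members and of 71 genes in 7 lists of replication and proliferation genes, with 1 point per gene. Filled points passed an edgeR adjusted p of 0.05, open points did not, and black bars are list medians; the medians of all lists lie below 0.

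Strand was not stated for the counting, so annotated overlaps could add reads. By GENCODE release 29, ORC4 exons share 430 of 8915 bases with ACVR2A and 157 with MBD5 on the other strand. ACVR2A was itself at 6.63 ± 1.75 CPM in control and 13.9 ± 1.35 CPM in resistant libraries (SD, n = 3). MBD5 was at 29.2 ± 2.26 CPM in control and 59.4 ± 7.79 CPM in resistant libraries. ORC2 exons share 256 of 5835 bases with an antisense gene, GINS3 exons 558 of 5105 and GINS2 exons 7 of 3264 with GSE1. ORC1, ORC3, ORC5, ORC6, GINS1 and CDC45 share none. The part of these overlaps in the values was not tested.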

How the data were processed

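The authors deposited raw counts per gene symbol, with 1 column for each of 6 libraries. HISAT2 2.0.4 was among the tools, per the submitters' processing notes. For the counter, strand setting, build and gene models the entry is: not given in the sources used here. Column names equal the sample titles, which gave the groups, and 0 sample columns were left over. Within each line, every pair of libraries differed beyond counting error (chi-square over its degrees of freedom, 8.94 to 62.9).

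From the counts, edgeR 4.0.16 (R 4.3.3) was run with filterByExpr, TMM (factors 0.867 to 1.14), no covariate and the quasi-likelihood test, with Benjamini-Hochberg adjustment over all tested genes at 0.05. Each standard error is the size of the fold change (log2) divided by the root of its F. GC content and length are medians over GENCODE release 29 basic transcripts. They were found for 85.3% of tested genes. For the adjustment, the distance of a library from each gene's average log2 CPM (prior count 1) was modelled by natural splines (6 degrees of freedom on GC content, 5 on log2 length) and used as an offset. Both fits were tested on simulated data. With a GC and length trend like that of the libraries put in, the unadjusted fit called most unchanged genes and the adjusted fit few. That trend was fitted to these libraries and had the form the adjusted fit removes, so this outcome was set in advance. The TMM-scale calls are not corrected for the trend. With it put in, the adjusted fit recovered 37.9% of simulated 1.5-fold changes and 75.4% of 2-fold changes.

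All members are named. From each list the 3 called genes with the largest change and a mean of at least 1 CPM are named. GSE1, ACVR2A, MBD5, LUM, NEFL, SNAP25, SYT1, RBFOX3, GAD1, SLC17A7, MBP, AQP4, CD68, E2F6, TOP2A, BUB1, MKI67 and CDK1 were named after their values were seen. Lists hold well-known genes and are not complete, and other genes of these complexes are not analysed here. Members and lists were chosen with earlier results of these data known. Alternatives were other filters, scalings, DESeq2 1.42.0, a replicate block, the adjustments, and leaving out each library.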

Additional observations from a re-analysis of the deposited data

How the results depend on the processing

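ORC1, GINS1, GINS2, GINS3 and CDC45 stayed lower and past the threshold under all 21 alternatives run (lowest and highest log2 fold change -1.25 and -0.78 for ORC1, -1.64 and -0.27 for GINS1, -2.15 and -1.67 for GINS2, -1.29 and -0.87 for GINS3, -1.20 and -0.55 for CDC45). ORC6 did so under 20, and with libraries scaled by their totals alone it was -0.29 (edgeR adjusted p = 0.0551). The alternatives that changed the calls of ORC2 to ORC5 were those with a GC adjustment. With GC and length adjusted, ORC2 was -0.18, ORC3 0.11, ORC4 -0.088 and ORC5 -0.15. With GC alone they were -0.15, 0.025, 0.0079 and -0.26, and the last passed (edgeR adjusted p = 0.0420). Libraries were also left out within the GC and length adjustment (all but the omission of resistant replicate 1 added after seeing the data). ORC2 was then -0.17, -0.20, -0.17 without control replicates 1, 2 and 3 in turn, and -0.35, -0.096, -0.086 without the resistant ones. ORC3 was then 0.13, 0.11, 0.087 without control replicates 1, 2 and 3 in turn, and 0.097, 0.11, 0.14 without the resistant ones. ORC4 was then -0.17, -0.037, -0.056 without control replicates 1, 2 and 3 in turn, and -0.018, -0.11, -0.10 without the resistant ones. ORC5 was then -0.096, -0.21, -0.16 without control replicates 1, 2 and 3 in turn, and -0.24, -0.11, -0.075 without the resistant ones. CUL2 was then -0.46, -0.42, -0.42 without control replicates 1, 2 and 3 in turn, and -0.44, -0.41, -0.42 without the resistant ones. Under all adjusted settings 0 members were higher, and 6 to 8 were lower. CUL2 was -0.43 with GC and length adjusted and -0.42 with GC alone.

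Genes of the lists called higher numbered 31 with library totals alone, 7 with GC and length adjusted, 8 with GC alone and 6 to 8 with a library left out as well. Those called lower numbered 55 with GC and length adjusted, and 50 to 56 with a library left out as well. The ratios to ORC2 to ORC5 differed by -0.80 (ORC1), -0.71 (ORC6), -1.44 (GINS) and -0.49 (CDC45) after adjustment, an alternative added after seeing the data. The cause was not tested.

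Same-numbered libraries of the lines did not deviate together (correlations of -0.13, -0.01 and -0.06 over 16642 genes), so the numbers were not taken to pair them. The replicate block left 4 members higher and 6 lower. The replicate block with GC and length adjustment gave -0.20 for ORC2, 0.11 for ORC3, -0.089 for ORC4, -0.15 for ORC5 and -0.43 for CUL2, 0 members higher, and 7 list genes higher. Depth did not limit the members, each with at least 499 counts in a library.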

Other observations

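The genes ORC6, GINS2 and GINS3 all lie on the long arm of chromosome 16. The 616 tested genes of that chromosome had a median log2 fold change of -1.05 on the TMM scale, against 0.05 over all genes tested. After GC and length adjustment their median was -0.34, with 51.6% lower and 17.7% higher, against 0.02, 32.6% and 34.4% over all genes tested. With the chromosome split at 37 Mb, adjusted medians were -0.29 for 336 genes on the short-arm side and -0.40 for 280 genes on the long-arm side. The adjusted decreases of GINS2 (-1.92), GINS3 (-1.08) and ORC6 (-0.79) are each larger than that median. Chromosome 20, with GINS1, had an adjusted median of -0.07, chromosome 22, with CDC45, of 0.11, and chromosome 1, with ORC1, of 0.0044. Chromosome 2, with ORC2 and ORC4, had an adjusted median of 0.13, chromosome 6, with ORC3, of 0.077, and chromosome 7, with ORC5, of 0.020. Chromosome 16 was not alone in its shift on the TMM scale. There the medians were -0.77 for chromosome 22, -0.50 for 20, -0.039 for 1, -0.015 for 7, 0.40 for 2 and 0.41 for 6. Chromosomes were taken from GENCODE release 29 and were looked at after the members' values were seen. The part of the chromosome in these results was not tested.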
